A study of Bos taurus with 36 samples.

Results

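The Toll-like receptors (TLRs) listed for cattle under the symbols TLR1 to TLR10 were followed in maternal blood and in fetal organs on Day 42 of gestation. Members were the rows of the count table whose Entrez gene carries one of these symbols. Of the 10 symbols, 9 matched a row among the 35092 genes of the table: TLR2 (Entrez 281534), TLR3 (281535), TLR4 (281536), TLR5 (444870), TLR6 (407237), TLR7 (493686), TLR8 (532262), TLR9 (282602) and TLR10 (539791). TLR1 was not analysed here, because the name table pairs no identifier with it other than as a synonym of TLR6 and TLR10. The blood of 10 pregnant heifers and the hearts, gonads and livers of their 10 male fetuses gave 36 RNA-seq libraries. In group ET_D7 the embryo and the recipient's cycle were both at Day 7, and in group ET_D9 a Day 7 embryo entered a recipient at Day 9 of its cycle. The 5 ET_D7 fetuses weighed at most 1.37 g and the 5 ET_D9 fetuses at least 1.396 g, so transfer group and fetal weight cannot be told apart. The fetuses are numbered by weight, from fetus 1 (1.253 g) to fetus 10 (1.69 g). There were 9 heart libraries (5 ET_D7 and 4 ET_D9, none from fetus 7), 9 gonad libraries (4 and 5, none from fetus 2), 8 liver libraries (5 and 3, none from fetuses 6 and 7) and 10 maternal blood libraries (5 and 5).

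TLRs are membrane receptors of innate immunity that recognise conserved microbial molecules. TLR2, paired with TLR6 and related receptors, senses bacterial lipoproteins at the cell surface, TLR4 senses lipopolysaccharide with CD14 and MD-2, and TLR5 senses flagellin. TLR3, TLR7, TLR8 and TLR9 reside in endosomes, where they detect double-stranded RNA, single-stranded RNA and unmethylated CpG DNA. Most TLRs signal through the adaptor MYD88, TLR3 signals through TICAM1 (TRIF), and TLR4 uses both. Monocytes, macrophages, neutrophils and B cells are their best known sites of expression, and the fetal liver at this age is a blood-forming organ.

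Total counts per library ranged from 18231089 to 40812354, and the mitochondrial genes took up to 57.3% of the counts of a heart library and 36.8% of a liver library. Levels are given as CPM, that is, counts scaled to the TMM-adjusted library total, which was done over the 26 organ libraries together and over the blood libraries apart. A count of 3 in a library, used here as the floor of detection, equals 0.0466 to 0.212 CPM and covers counting error only. Levels were not compared between receptors, because transcript lengths were not used here. The libraries labelled gonads carried 449.6 to 579 summed CPM of 8 kidney and mesonephros markers, against at most 8.89 CPM of 6 Sertoli markers and at most 0.121 CPM of GATA4, so their markers do not bear out the label. The 12 macrophage markers summed to 216 to 370 CPM in the liver, 23.9 to 38.8 CPM in the heart, 23.2 to 28.7 CPM in the gonads and 872 to 1210 CPM in blood, with AIF1 at 0 throughout. The 6 neutrophil markers summed to 85.1 to 162 CPM in the liver, and to at most 4.99 CPM in the heart and 1.29 CPM in the gonads. The liver sum was mostly S100A12 (mean 69.95 CPM). There CXCR2 averaged 0.783 CPM, and MMP9 0.0487 CPM against 0.596 CPM in the heart. In bulk tissue, more cells of a type and more RNA per cell cannot be told apart. Some libraries stood apart. The 6 cardiomyocyte markers summed to 1983 CPM in the liver library of fetus 3. They summed to 3574 and 1203 CPM in the blood libraries of the dams of fetuses 2 and 5. Few genes made these sums: ACTC1 reached 1884 CPM in the liver, and MYH7 3338, TNNI1 214 and MYH6 20.3 CPM in blood. In blood ACTC1 reached at most 2.22 CPM and TNNT2 0.185 CPM. NKX2-5 was at 0 in both tissues, so the full list does not bear out cardiac muscle there. In the liver, 1536 of the 14047 genes that reached 100 counts in some library held at most 2 counts in another (10.9%), against 1.85% in the heart, 1.301% in gonads and 1.76% in blood, and TLR3 and TLR4 were among those liver genes. The file does not show whether these liver counts are as they came from the reads, so the liver values of TLR3 and TLR4 are given as deposited.

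Maternal blood held every receptor in every library. TLR6 averaged 150.3 ± 17.5 CPM there, TLR8 58.2 ± 14.4 CPM, TLR2 53.4 ± 10.2 CPM, TLR7 45.5 ± 8.58 CPM, TLR4 33.8 ± 6.63 CPM, TLR10 26.8 ± 4.05 CPM, TLR3 21.9 ± 4.60 CPM, TLR9 4.65 ± 1.13 CPM and TLR5 2.20 ± 0.806 CPM (SD, n = 10 each). Relative to its mean, TLR6 varied least between dams and TLR5 most, with TLR5 between 0.979 and 3.37 CPM. For 6 of the 9 receptors, TLR2, TLR6, TLR7, TLR8, TLR9 and TLR10, the lowest blood library lay above the highest organ library, which held for 15.2% of all genes with a count. By the ratio of the lowest blood to the highest organ library, TLR8 was separated most, the endosomal receptor for single-stranded RNA, with at least 40.5 CPM in blood and at most 1.25 CPM in any organ library. TLR3, TLR4 and TLR5 overlapped, since single liver libraries reached 30.2 CPM of TLR3 and 39.2 CPM of TLR4 and a gonad library reached 2.73 CPM of TLR5. Blood and organ libraries were made with different kits and normalized apart, so tissue and kit cannot be told apart and no test was run between them.

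**Figure D1:**
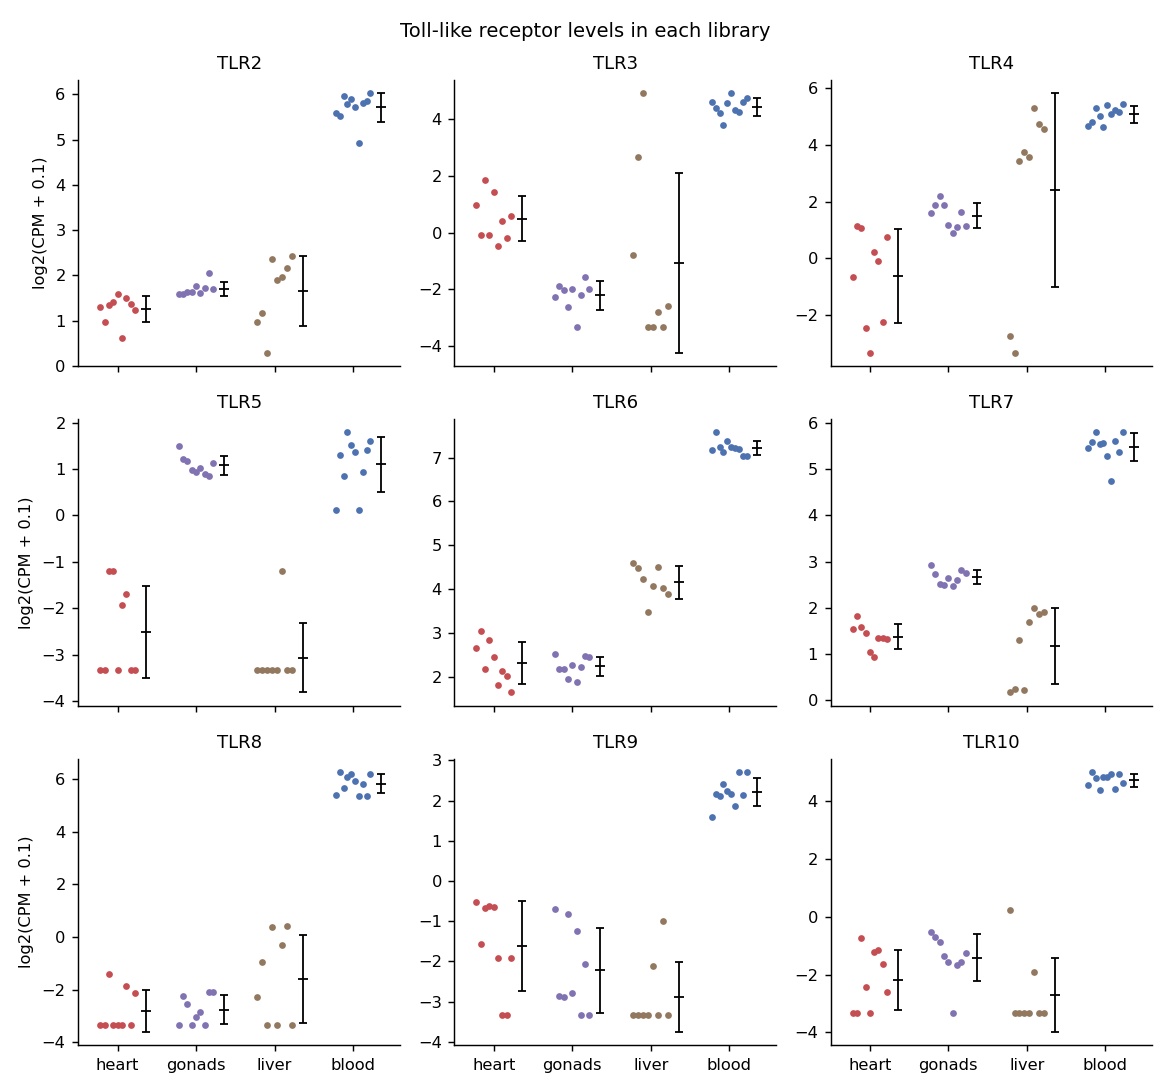
Level of each Toll-like receptor in every library, as log2(CPM + 0.1), for heart (n = 9), gonads (n = 9), liver (n = 8) and maternal blood (n = 10). Points are libraries in order of fetal weight, and the bars beside them give the mean and SD on the same scale. The points for TLR3 and TLR4 in the liver are spread from 0 counts to the level of maternal blood, while TLR6 and TLR7 form tight groups in the gonads.

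The organ comparisons asked which receptors each fetal organ transcribes. All 26 organ libraries entered one fit of edgeR's quasi-likelihood test, with Benjamini-Hochberg adjustment over 25095 genes and a threshold of 0.05. In the gonads against the heart, 2 of 9 receptors were higher (TLR5 and TLR7) and 1 lower (TLR3), where 23.1% of all genes were higher and 23.5% lower. In the liver against the heart, 2 were higher (TLR4 and TLR6) and 0 lower, where 30.7% of all genes were higher and 27.9% lower. At an unadjusted p under 0.05 4 passed, all of them higher (63% of all genes passed in either direction), and DESeq2 called 4 higher and 0 lower. In the liver against the gonads, 4 were higher (TLR3, TLR4, TLR6 and TLR8) and 2 lower (TLR5 and TLR7), beside 33.6% and 30.8% of all genes. These are counts among 9 receptors, some below and some above the share of all genes, and nothing about the receptors as a family is read from them. With the fetus as a block, 3 receptors passed in the liver against the gonads (TLR5, TLR6 and TLR7). For 3 of the 27 member contrasts both groups averaged at or under the floor, and no fold change is given: TLR8 in the gonads against the heart, and TLR5 and TLR10 in the liver against the heart.

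**Figure D2:**
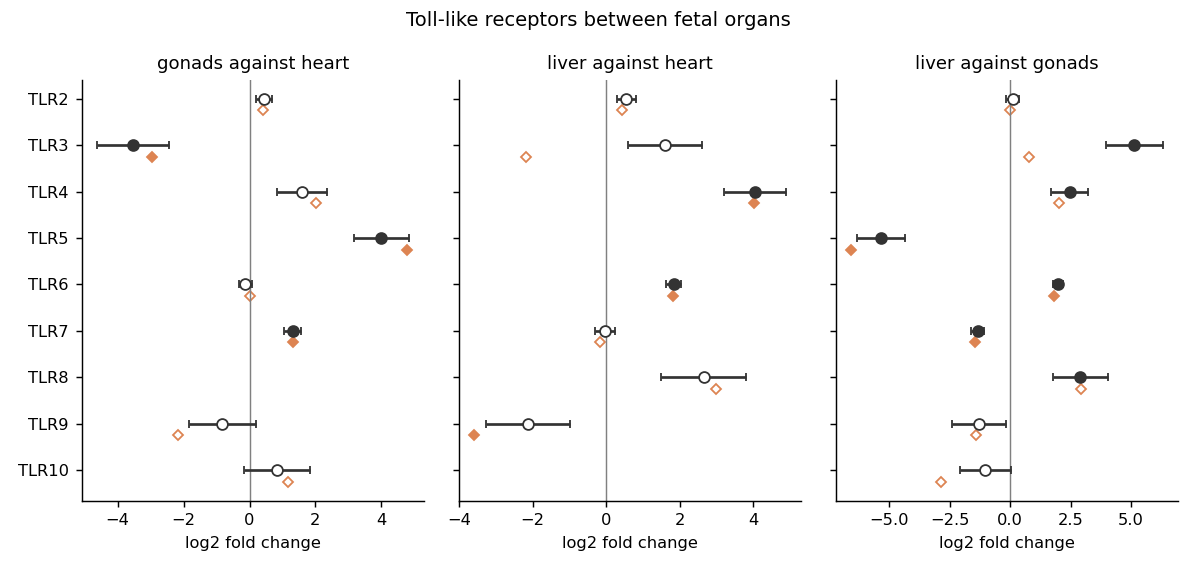
Log2 fold changes of the receptors between fetal organs from edgeR's quasi-likelihood test over 26 libraries. Circles are the unblocked fit with bars of 1 standard error, diamonds the fit with the fetus as a block, and filled symbols have an adjusted p under 0.05. TLR6 is filled in both liver panels under both fits, whereas TLR3 in the liver moves from 5.14 to 0.80 against the gonads when the fetus is a block.

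TLR6, the partner of TLR2 for bacterial lipoproteins, was detected in every organ library and was highest in the liver. Its counts ran from 156 to 535 in the liver, where the level was 11.01 at lowest, 17.6 at the median and 24.0 CPM at highest. The heart held 3.01 to 8.11 CPM (median 4.41) and the gonads 3.596 to 5.62 CPM (median 4.58), so no heart or gonad library reached the lowest liver library. Mean levels were 18.2 ± 4.49 CPM for 8 livers, 5.09 ± 1.74 CPM for 9 hearts and 4.66 ± 0.712 CPM for 9 gonad libraries (± SD). The log2 fold change of the liver was 1.84 over the heart (standard error 0.201, adjusted p = 5.88e-09, edgeR) and 1.97 over the gonads (standard error 0.201, adjusted p = 1.36e-09, edgeR). Heart and gonads did not differ beyond their spread, with a log2 difference of −0.13 (standard error 0.192, adjusted p = 0.616, edgeR) that was 0.03 with the fetus as a block. In the annotation TLR6 lies beside TLR10 and the genes overlap, and the strand option of the counting is not given in the sources used here, so reads of the pair may be exchanged.

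TLR2, the shared subunit of the lipoprotein receptors, was detected in every organ library. It had 1.44 to 2.90 CPM in the heart (median 2.43), 2.89 to 4.07 CPM in the gonads (median 3.01) and 1.12 to 5.30 CPM in the liver (median 3.71). No contrast passed the test, with log2 differences of 0.44 in the gonads over the heart (standard error 0.249), 0.55 in the liver over the heart (standard error 0.258) and 0.11 in the liver over the gonads (standard error 0.256). The adjusted p-values were 0.15, 0.0696 and 0.732 (edgeR). The liver difference over the heart lies near the threshold, and it passed by DESeq2 (0.71, adjusted p = 0.00414), with upper quartile scaling (0.75, adjusted p = 0.0157) and without fetus 3 (0.77, adjusted p = 0.0101, edgeR). The liver libraries of fetuses 1, 2 and 3 were the lowest of that organ, at 1.87, 2.14 and 1.12 CPM. TLR2 overlaps RNF175 in the annotation.

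TLR10, a surface receptor of the same subfamily, was low in all organs. Its counts ran from 0 to 18 in the heart, from 0 to 27 in the gonads and from 0 to 20 in the liver. In the gonads 8 of 9 libraries reached 10 counts, with a mean of 0.319 ± 0.179 CPM (SD, n = 9). In the liver 6 of 8 libraries had 0, and the library of fetus 1 held 20 of the organ's counts and that of fetus 8 the other 4. The log2 difference of the gonads over the heart was 0.84 (standard error 1.01, adjusted p = 0.521, edgeR), and that of the liver over the gonads −1.03 (standard error 1.06, adjusted p = 0.399, edgeR). Without fetus 1 the latter was −3.27 with an adjusted p of 0.0125 (edgeR), so this call depended on a single animal.

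TLR4, the lipopolysaccharide receptor, was higher in the liver than in the heart, but not in the liver of every fetus. The liver libraries of fetuses 1, 2, 3, 4, 5, 8, 9 and 10 held 1, 0, 180, 188, 356, 929, 526 and 360 counts. Thus the livers of both lightest fetuses had at most 1 count, and the other 6 had 10.6 to 39.2 CPM. In the heart the counts were 9, 35, 72, 2, 0, 26, 24, 2 and 48 in order of fetal weight, or 0 to 2.10 CPM, and the gonads ranged from 1.74 to 4.46 CPM (median 2.92). The log2 fold change of the liver over the heart was 4.05 (standard error 0.834, adjusted p = 0.000143, edgeR), and 4.02 with the fetus as a block (adjusted p = 0.00727). Over the gonads it was 2.45 (standard error 0.773, adjusted p = 0.00721, edgeR). With the fetus as a block this became 2.01 and was no longer called (adjusted p = 0.105). The gonads exceeded the heart by 1.60 (standard error 0.757, adjusted p = 0.0849, edgeR), and without fetus 2 that difference passed, at 1.82 (adjusted p = 0.026). Macrophage markers did not follow these counts within the liver: they summed to 370 CPM in fetus 1 and 334 CPM in fetus 2, the highest of the organ, and their part in the result was not tested.

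TLR5, the flagellin receptor, was transcribed in the libraries labelled gonads and hardly in the other organs. Every gonad library held 82 to 124 counts, 1.71 to 2.73 CPM (median 1.94). Of the heart libraries 5 of 9 had 0, and the others had 12 counts or fewer, at most 0.338 CPM. Of the liver libraries 7 of 8 had 0, and that of fetus 8 had 8 counts. Thus no heart or liver library came near the lowest gonad library. The log2 fold change of the gonads over the heart was 3.995 (standard error 0.838, adjusted p = 0.000233, edgeR), and of the liver against the gonads −5.34 (standard error 0.976, adjusted p = 2.7e-05, edgeR). Without the liver library of fetus 8 every remaining liver library was at 0. The mean of all 9 gonad libraries (2.03 CPM) was at least 9.59-fold higher, taking the highest per-library floor of 3 counts as the liver level. The kidney and mesonephros markers that set these libraries apart were described above, and their part in the TLR5 level was not tested.

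TLR3, the receptor for double-stranded RNA, was low but present in every heart library and close to the floor in the gonads. Heart libraries held 14 to 125 counts, 0.616 to 3.49 CPM (median 1.22), with fetus 3 highest. Gonad libraries held 0 to 12 counts, at most 0.238 CPM, so the lowest heart library lay above every gonad library. The log2 difference of the gonads against the heart was −3.53 (standard error 1.09, adjusted p = 0.0089, edgeR), and −2.97 with the fetus as a block (adjusted p = 0.024). In the liver the counts of fetuses 1, 2, 3, 4, 5, 8, 9 and 10 were 9, 132, 513, 0, 0, 1, 0 and 1. The livers of fetuses 2 and 3 therefore stood at 6.14 and 30.2 CPM, while the other 6 were at most 0.480 CPM. The unblocked fit gave a log2 fold change of 5.14 for the liver over the gonads (standard error 1.17, adjusted p = 0.000415, edgeR). It fell to 2.97 without fetus 3 (adjusted p = 0.0174), to 0.80 with the fetus as a block (adjusted p = 0.672), and was −2.45 without the liver libraries of fetuses 1 to 3 and the heart library of fetus 3 (adjusted p = 0.0162). No direction for TLR3 in the liver is therefore given. Against the heart, the liver value was 1.60 in the unblocked fit (standard error 1.02, adjusted p = 0.179, edgeR) and −5.66 without those 4 libraries (adjusted p = 1.02e-05).

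**Figure D3:**
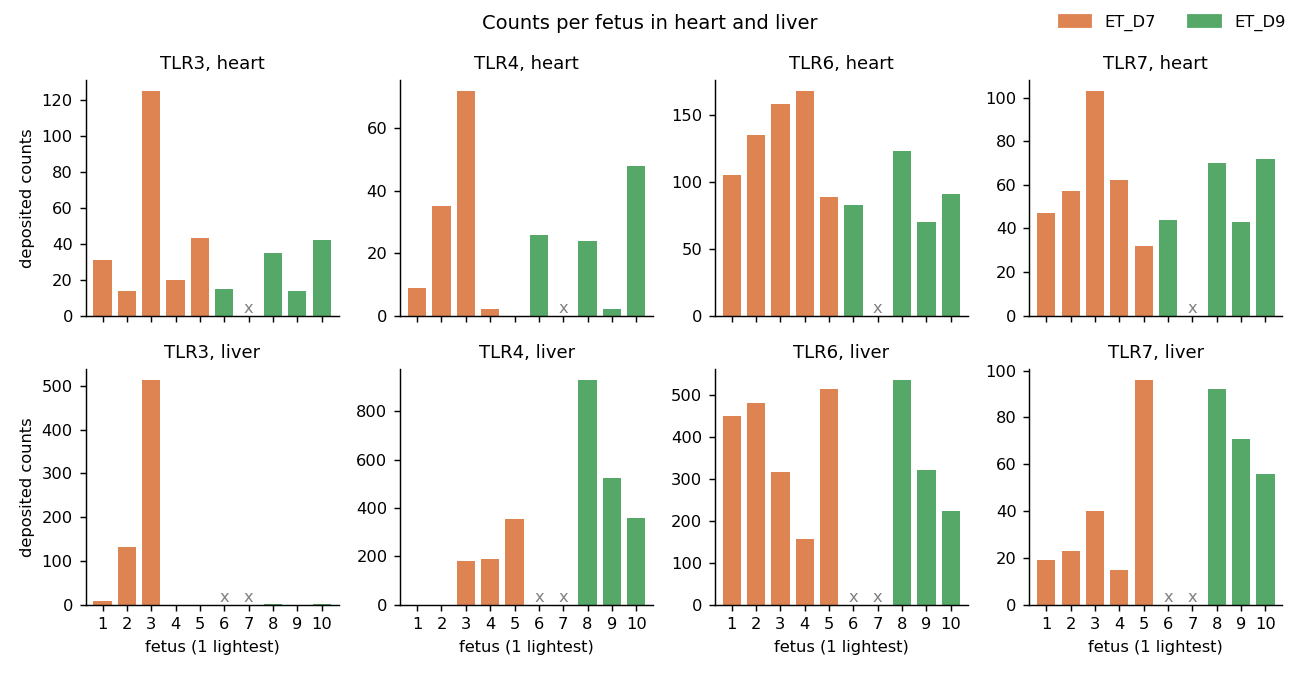
Deposited counts of TLR3, TLR4, TLR6 and TLR7 in the heart and liver library of each fetus, numbered by weight and coloured by transfer group. A cross marks a fetus without a library, and each panel has its own linear axis from 0. In the liver TLR3 is concentrated in fetuses 2 and 3 (132 and 513 counts) and TLR4 is at 1 and 0 counts in fetuses 1 and 2, whereas TLR6 has 156 counts or more in each.

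TLR7, an endosomal receptor for single-stranded RNA, was highest in the libraries labelled gonads. These held 271 to 393 counts, 5.47 to 7.46 CPM (median 6.14), above every heart library (1.81 to 3.42 CPM, median 2.44) and every liver library (1.01 to 3.88 CPM, median 2.74). The gonads exceeded the heart by 1.31 on the log2 scale (standard error 0.258, adjusted p = 0.000115, edgeR), and the liver lay below the gonads by −1.34 (standard error 0.269, adjusted p = 9.37e-05, edgeR). Both calls remained with the fetus as a block, at 1.31 and −1.46 (adjusted p = 0.0018 and 0.000698, edgeR). Heart and liver did not differ beyond their spread (log2 difference −0.03, standard error 0.265, adjusted p = 0.972, edgeR), and the sign of this value turned with DESeq2's scaling (0.13) and upper quartile scaling (0.15). The summed macrophage markers were not higher in the gonads (23.2 to 28.7 CPM) than in the heart, but single markers differed in direction. CD68 averaged 11.3 CPM in the gonads against 4.50 CPM in the heart, and C1QB 3.10 against 5.34 CPM. The 6 B cell markers summed to 9.58 to 21.6 CPM in the gonads, 3.475 to 8.29 CPM in the heart and 20.3 to 58.6 CPM in the liver. The part of these cells in the TLR7 level was not tested.

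TLR8, the neighbour of TLR7 in the genome and likewise a sensor of single-stranded RNA, was near the floor in the heart and gonads. It was low in the liver as well (median 0.263 CPM). The heart had 0 counts in 6 of 9 libraries and at most 10, and the gonads had at most 8. In the liver the counts of fetuses 1, 2, 3, 4, 5, 8, 9 and 10 were 2, 9, 0, 17, 0, 17, 25 and 0, so 3 of 8 libraries had none. Liver libraries exceeded gonad libraries by 2.90 on the log2 scale (standard error 1.14, adjusted p = 0.0286, edgeR). It was not called with the fetus as a block (2.92, adjusted p = 0.109), nor without fetus 4, 8 or 9 (2.58, 2.62 and 2.75, adjusted p = 0.0757, 0.0637 and 0.0637). Over the heart the liver value was 2.65 (standard error 1.15, adjusted p = 0.0503, edgeR).

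TLR9, which binds CpG DNA, was low in each organ. It had 0 to 19 counts in the heart, 0 to 30 in the gonads and 0 to 8 in the liver, where 6 of 8 libraries had 0. The means were 0.310 ± 0.245, 0.173 ± 0.206 and 0.0664 ± 0.143 CPM in that order (± SD, n = 9, 9 and 8). The log2 differences were −0.83 for the gonads against the heart (standard error 1.02), −2.11 for the liver against the heart (standard error 1.14) and −1.28 for the liver against the gonads (standard error 1.11), with adjusted p-values of 0.533, 0.113 and 0.316 (edgeR). With the fetus as a block the liver value against the heart was −3.59 (adjusted p = 0.043), and without fetus 9 it was −3.73 (adjusted p = 0.0139).

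The next comparison followed the receptors along fetal weight within each tissue. A linear slope, a natural spline with 3 degrees of freedom and the difference between transfer groups were each fitted with edgeR's quasi-likelihood test for the genes that reached 10 counts in 4 or more libraries of the tissue. This filter left 5 receptors in the heart (TLR2, TLR3, TLR4, TLR6 and TLR7), 6 in the gonads (TLR2, TLR4, TLR5, TLR6, TLR7 and TLR10), 4 in the liver (TLR2, TLR4, TLR6 and TLR7) and all 9 in blood. Slopes are in log2 units per 0.1 g.

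No receptor had a linear slope past the threshold in any tissue. In the heart 0 of 5 were called (edgeR; 1 at an unadjusted p under 0.05, 1 by DESeq2), against 6.77% of all genes called and 29.1% at the unadjusted p. In the gonads 0 of 6 were called (edgeR; 0 unadjusted, 0 by DESeq2), against 0% of all genes called and 5.62% unadjusted. In the liver 0 of 4 were called (edgeR; 1 unadjusted, 0 by DESeq2), against 2.23% of all genes called and 17.2% unadjusted. In maternal blood 0 of 9 were called (edgeR; 2 unadjusted, 0 by DESeq2), against 0% of all genes called and 9.69% unadjusted. By transfer group, edgeR called 0 receptors in each tissue. For heart, gonads, liver and blood in turn, 1, 1, 0 and 1 passed at an unadjusted p under 0.05, and DESeq2 called 1, 1, 0 and 0. The group difference was called for 0.0492%, 0.354%, 4.14% and 0% of all genes in the same order of tissues, and 24.6%, 18.5%, 17.4% and 7.6% of all genes passed unadjusted. By the spline, 0 receptors were called in the heart, gonads and blood, where 0%, 0% and 0.129% of all genes were called, with 0 at an unadjusted p under 0.05 and 0 by DESeq2. In the liver 1 of 4 receptors was called by the spline, TLR4, against 1.81% of all genes.

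**Figure D4:**
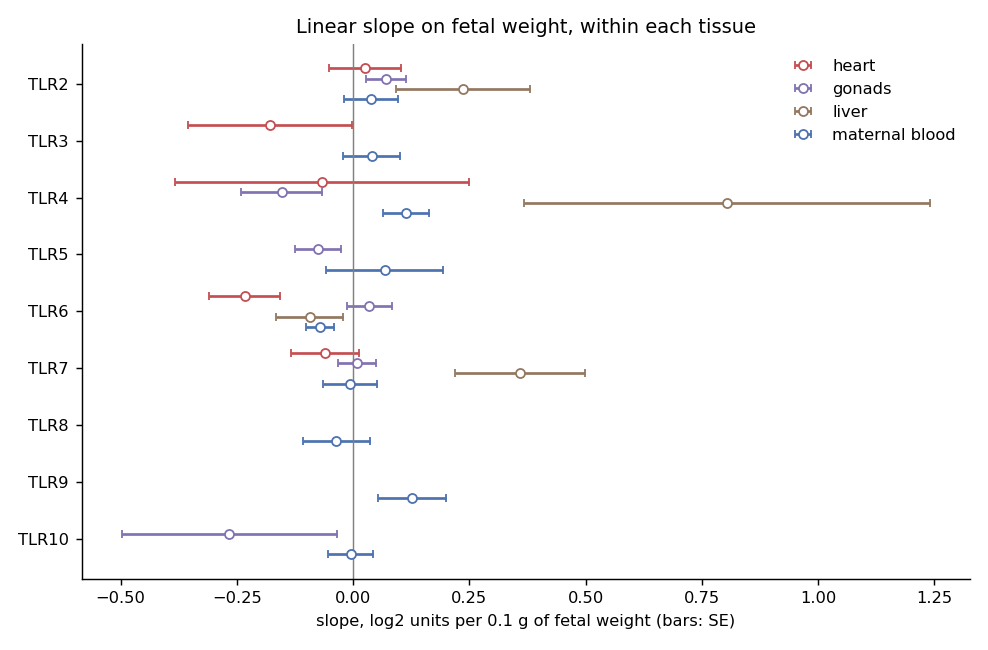
Linear slopes of the receptors on fetal weight within heart, gonads, liver and maternal blood, in log2 units per 0.1 g, with bars of 1 standard error. Receptors that did not pass the count filter in a tissue have no point. None of the slopes had an adjusted p under 0.05, the widest bar belongs to TLR4 in the liver (slope 0.80, standard error 0.437), and the blood slopes lie between −0.07 and 0.13.

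TLR4 in the liver was the single receptor related to fetal weight by an adjusted p in edgeR's fits over all libraries (spline p = 0.000222, adjusted p = 0.0166, edgeR). The call was lost without fetus 1, but not without fetus 2 alone. It was also lost without both, with a spline of 2 degrees of freedom and with all detected genes in the fit. The linear slope was 0.80 (standard error 0.437, adjusted p = 0.391, edgeR), and 0.36 without fetuses 1 and 2 (adjusted p = 0.228). In the 5 ET_D7 livers TLR4 was at 0.0533, 0, 10.6, 13.3 and 11.6 CPM, and in the 3 ET_D9 livers at 39.2, 26.3 and 23.5 CPM. These groups did not overlap, but the difference of 1.89 did not pass (standard error 1.22, adjusted p = 0.491, edgeR). TLR7 in the liver was at 1.01, 1.07, 2.35, 1.06 and 3.13 CPM in the ET_D7 fetuses and at 3.88, 3.56 and 3.66 CPM in the ET_D9 fetuses. Its slope was 0.36 (standard error 0.14, p = 0.0294, adjusted p = 0.226, edgeR). The T cell markers of these livers summed to 17.6 to 39.6 CPM in ET_D7 and to 0.981 to 2.90 CPM in ET_D9. These sums were mostly 1 gene, CD247 (0 to 39.6 CPM over the livers), and each other T cell marker averaged at most 0.347 CPM. They are therefore not read as a share of T cells, and their part in the TLR4 and TLR7 values was not tested. TLR7 is a member of the liver cluster that the study chose for rising with weight on these samples, so its direction is not independent evidence. In the same livers the TLR6 slope came to −0.09 (standard error 0.0713, adjusted p = 0.566, edgeR) and the TLR2 slope to 0.24 (standard error 0.145, adjusted p = 0.455, edgeR).

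In the heart, TLR6 was lower in the heavier fetuses without passing the test. The ET_D7 hearts held 6.23, 8.11, 4.41, 7.09 and 5.38 CPM and the ET_D9 hearts 3.41, 4.29, 3.92 and 3.01 CPM, so the groups did not overlap. The slope was −0.23 (standard error 0.0759, p = 0.0113, adjusted p = 0.0801, edgeR), and the ET_D9 value differed from ET_D7 by −0.77 (standard error 0.21, p = 0.00441, adjusted p = 0.0762, edgeR). Both values passed by DESeq2 (adjusted p = 0.0486 and 0.0196) and, with edgeR, without fetus 3 (adjusted p = 0.0365 and 0.0192). The mitochondrial share of the heart libraries was 23.5% to 57.3% in ET_D7 and 17.1% to 39.0% in ET_D9. Without the mitochondrial genes the TLR6 slope was −0.23 and the group difference −0.77. Hearts of ET_D7 had 23.9 to 35.98 summed CPM of macrophage markers and those of ET_D9 25.6 to 38.8 CPM. The 6 endothelial markers summed to 300.4 to 369.9 CPM in ET_D7 hearts and to 406.1 to 525.7 CPM in ET_D9 hearts, without overlap, and their part in the TLR6 difference was not tested. The slopes of TLR2, TLR3, TLR4 and TLR7 in the heart lay between −0.18 and 0.03, with adjusted p-values of 0.526 or more (edgeR).

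In the libraries labelled gonads, TLR4 had 2.92, 3.53, 4.46 and 3.57 CPM in ET_D7 and 2.16, 1.74, 2.07, 2.996 and 2.10 CPM in ET_D9. The groups overlapped by 1 library, that of fetus 9. The difference was −0.70 (standard error 0.176, p = 0.00273, adjusted p = 0.0985, edgeR), and it passed by DESeq2 (−0.66, adjusted p = 0.034) and without fetus 9 (−0.82, adjusted p = 0.0449, edgeR). The other receptors tested there had slopes between −0.27 (TLR10) and 0.07 (TLR2), with adjusted p-values of 0.858 or more (edgeR). The difference between transfer groups was also compared between the 3 organs, as an interaction over the 26 organ libraries added after seeing the data. Of 9 receptors 0 were called (edgeR; 4 at an unadjusted p under 0.05, TLR3, TLR5, TLR6 and TLR7), where 9.71% of 19635 genes were called and 25.8% passed unadjusted. TLR3 had the smallest adjusted p, 0.0622, and DESeq2 was not run for this term.

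In maternal blood, TLR4 ran from 24.4 to 42.9 CPM and TLR6 from 132 to 191 CPM over the dams. The libraries of the dams of fetuses 2, 3, 6, 9 and 10 had 40516154 to 40812354 counts, and the others 26602415 to 30393051. With this depth class as a covariate, the slopes of TLR4 and TLR6 kept their sign. TLR4 had a slope of 0.11 (standard error 0.0493, p = 0.0414, adjusted p = 0.501, edgeR), with 24.8, 27.6, 38.5, 32.0 and 24.4 CPM in ET_D7 dams and 42.0, 33.6, 36.9, 35.4 and 42.9 CPM in ET_D9 dams. The groups overlapped, and the ET_D9 value exceeded ET_D7 by 0.37 (standard error 0.133, p = 0.0167, adjusted p = 0.596, edgeR). TLR6 had a slope of −0.07 (standard error 0.0304, p = 0.0391, adjusted p = 0.501, edgeR). Its highest libraries were those of the dams of fetuses 2 and 5 (191.4 and 165.5 CPM), which stood apart in cardiomyocyte markers. Their joint part in this slope was not tested. Of the other receptors, TLR9 had the largest slope, 0.13 (standard error 0.0728, adjusted p = 0.609, edgeR), and TLR10 the one nearest 0, −0.0049 (standard error 0.0483, adjusted p = 0.981, edgeR). The slopes had standard errors of 0.0304 to 0.126 log2 units per 0.1 g in blood, where 0 of 16284 genes were called. Slopes several times their standard error could therefore also go uncalled with 10 dams, as that of IRF7 did (given below).

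**Figure D5:**
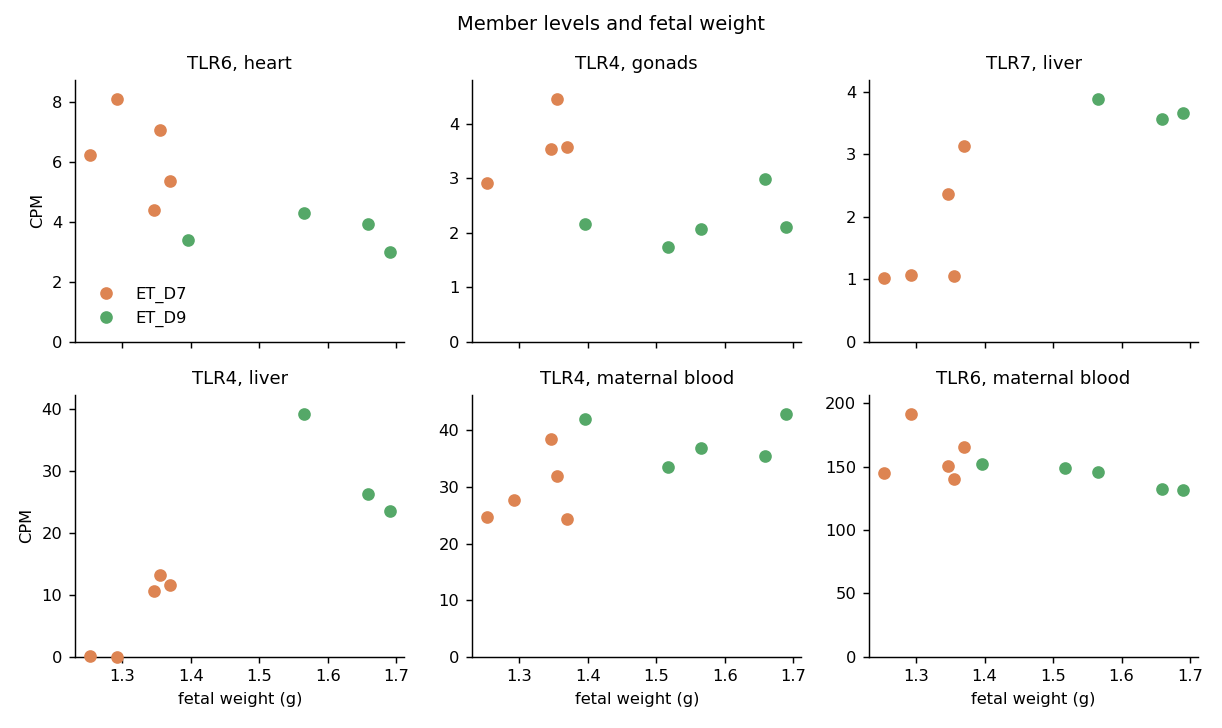
CPM of the receptors with a p under 0.05 before adjustment in some weight or group test, plotted against fetal weight in g, with 1 point per library and the colour giving the transfer group. Vertical axes start at 0 and differ between panels. ET_D9 points lie below all ET_D7 points for TLR6 in the heart (at most 4.29 CPM) and above them for TLR4 and TLR7 in the liver (at least 23.5 and 3.56 CPM), and overlap for TLR4 and TLR6 in maternal blood.

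The partners of the receptors were taken from a list of 49 genes of the TLR pathway, all matched to a row, of which 48 had a count in the organs. In the liver against the gonads 21 of 48 were higher and 12 lower, in the liver against the heart 15 were higher and 15 lower, and in the gonads against the heart 9 were higher and 18 lower (edgeR's quasi-likelihood test). Over all genes, the shares higher and lower were 33.6% and 30.8%, 30.7% and 27.9%, and 23.1% and 23.5% in that order, so that the liver against the heart lay near the background. DESeq2 called 32, 26 and 29 of the 48 in these contrasts. The shares above are edgeR's, and DESeq2's shares of all genes are not given here, so no excess is read from its counts. The median log2 differences were 0.09, −0.04 and −0.27, where the medians over all genes were 0.00, 0.00 and 0.08. Among the co-receptors and chaperones, 6 of 9 were higher and 1 lower in the liver than in the gonads. Among the kinases and ligases 3 of 15 were higher and 8 lower in the same contrast, and among the transcription factors 5 of 7 were higher and 0 lower, beside the 33.6% and 30.8% of all genes. Of the 8 target genes 2 were higher (the cytokine genes IL1B and IL12B) and 2 lower (TNF and CXCL8) in the liver than in the gonads, and DESeq2 called IL1B and TNF of these. TNF and CXCL8 had 0 counts in every liver library and at most 15 in any heart or gonad library, and IL12B had at most 8 counts in any organ library.

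CD14, the co-receptor that hands lipopolysaccharide to TLR4, stood at 28.8 to 67.8 CPM in the liver, 0.586 to 1.62 CPM in the heart and 0.456 to 0.992 CPM in the gonads. Its log2 fold change in the liver was 5.38 over the heart (standard error 0.229, adjusted p = 1.12e-17, edgeR) and 6.12 over the gonads (standard error 0.235, adjusted p = 9.63e-19, edgeR). Every liver library held at least 441 counts of CD14, including those of fetuses 1 and 2, in which TLR4 had at most 1. LY96 (MD-2), the subunit of TLR4 that binds lipopolysaccharide, was higher in the liver by 2.20 over the heart (adjusted p = 1.86e-06) and 1.45 over the gonads (adjusted p = 0.000307). CD180, a TLR4 relative of B cells, and its partner LY86 (MD-1) differed in direction. LY86 was higher in the liver than in the heart and gonads, by 3.11 and 3.89 (adjusted p = 8.88e-05 and 4.81e-06), and CD180 was lower in the liver than in the gonads, by −2.67 (adjusted p = 0.0199). CD180 reached at most 0.451 CPM in any organ library. In maternal blood CD14 averaged 43.1 ± 13.1 CPM, LY96 26.1 ± 8.08 CPM, CD180 30.9 ± 5.51 CPM and LY86 132 ± 35.95 CPM (SD, n = 10 each).

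Of the genes that serve the endosomal receptors, UNC93B1 and TICAM1 passed no organ contrast. UNC93B1, the chaperone that takes TLR3, TLR7, TLR8 and TLR9 to endosomes, averaged 15.4 ± 3.95 CPM over 9 hearts, 16.7 ± 3.93 CPM over 9 gonad libraries and 16.1 ± 4.89 CPM over 8 livers (± SD). Its log2 differences between organs lay between −0.06 and 0.12, with adjusted p-values of 0.623 or more (edgeR) and standard errors of up to 0.184. TICAM1, the adaptor of TLR3, likewise had 4.15 ± 0.731, 4.07 ± 1.12 and 4.17 ± 1.33 CPM, with differences between −0.03 and 0.04 (standard errors of up to 0.224). MYD88 was lower in the gonads than in the heart by −0.72 (adjusted p = 0.00109, edgeR) and higher in the liver than in the gonads by 0.42 (adjusted p = 0.0418, edgeR). TIRAP, which bridges MYD88 to TLR2 and TLR4, was higher in the liver by 1.92 over the heart (adjusted p = 8.17e-09) and 2.59 over the gonads (adjusted p = 2.38e-11). The kinase IRAK4 had the opposite order, with 52.3 ± 7.82 CPM in the gonads, 25.0 ± 4.17 CPM in the heart and 13.1 ± 2.57 CPM in the liver. IRAK4 was lower in the liver than in the gonads by −1.99 (adjusted p = 1.59e-13, edgeR). The ubiquitin ligase TRAF6 was lower than in the heart by −0.34 in the gonads (adjusted p = 0.0234) and by −0.32 in the liver (adjusted p = 0.0305), and DESeq2 called only the former. IRF7, the transcription factor of the interferon response, was higher in the liver by 0.94 over the heart (adjusted p = 0.0129) and 1.55 over the gonads (adjusted p = 0.000123).

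Along fetal weight, edgeR called 0 pathway genes by slope, group or spline in any tissue, of the 40, 40, 39 and 46 tested in heart, gonads, liver and blood. At an unadjusted p under 0.05 the slopes of 11, 0, 5 and 7 of them passed, where 29.1%, 5.62%, 17.2% and 9.69% of all genes did. DESeq2 called 5 by slope in the heart (CD36, MAP3K7, MYD88, RELA and TAB2), 0 in the gonads, 1 in the liver (TOLLIP) and 1 in blood (IRF7), and 5, 1, 2 and 1 by group, 0, 1, 2 and 2 by spline. No excess is read from these counts, since DESeq2's shares of all genes are not given here. IRF7 in blood had a slope of 0.40 (standard error 0.0778, p = 0.000274, adjusted p = 0.298, edgeR), with 17.0 CPM at lowest, 29.2 CPM at the median and 100.6 CPM in the dam of fetus 10. In that library 7 interferon-stimulated markers summed to 2956 CPM, and in the other 9 to between 429.9 and 1163 CPM. The part of a response of single dams in this slope was not tested.

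Finally, the genes whose level over the 10 blood libraries was most like that of each receptor were ranked by Pearson's r of log2(CPM + 0.1) among 11937 genes. These values describe 10 libraries that differed in depth (26602415 to 40812354 counts) and in neutrophil markers (1085 to 2803 summed CPM). The part of these differences in r was not tested, and the values were picked as the highest of so many genes. TLR7 was most like CD14 (r = 0.98), the protease CTSB (0.96) and the transcription factor CEBPD (0.95). TLR2 was most like MTRF1 (0.97), CD2AP (0.96) and the inflammasome sensor NLRP3 (0.95), and TLR3 most like LRRC49 (0.91), SLC46A3 (0.86) and the DNA sensor CGAS (0.84). TLR4 was followed by ICOSLG (0.94), DZIP1 (0.91) and COMMD9 (0.89), and TLR6 by ENOX2 (0.97), APOBEC2 (0.95) and TXLNB (0.95). TLR8 was followed by SGCA (0.90), FGD6 and KCNG2 (0.89 each). The dams of fetuses 2 and 5 had the highest TLR6 (191.4 and 165.5 CPM) and TLR8 (77.8 and 73.6 CPM). Their libraries stood apart by summed cardiomyocyte markers (3574 and 1203 CPM), and the part of these libraries in r was not tested. TLR9 was followed by CRYBB1 (0.91), PSMF1 (0.87) and MEF2D (0.86). TLR5 was most like RAPGEF3 (0.90), PPID and RPP30 (0.88 each), and TLR10 most like MST1, SEC31A (0.88 and 0.88) and RAD51C (0.87). Among the receptors themselves, TLR2 and TLR7 had the highest r (0.87) and TLR4 and TLR6 the lowest (−0.52). The neighbours TLR7 and TLR8 had an r of 0.55, and the overlapping TLR6 and TLR10 one of 0.49.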

How the data were processed

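RNA was extracted from maternal blood and fetal organs, and libraries were made with a TruSeq stranded mRNA kit (organs) or a SMARTer stranded kit (blood) and sequenced in pairs. The authors trimmed reads with Trimmomatic, mapped them with STAR 2.7.0b to ARS-UCD1.3, and deposited whole-number counts per Entrez gene from featureCounts (Subread 2.0.3). The options for strand, multi-mapping reads and pairs are not given in the sources used here. Of counts between 1 and 20 in a tissue, 64.5% to 85.5% were even.

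Symbols came from a RefSeq table of ARS-UCD2.0, which named 31630 of 35092 identifiers. The members and lists were chosen with earlier results of these data known. Counts were tested with edgeR 4.0.16 (R 4.3.3, quasi-likelihood, TMM, Benjamini-Hochberg over all genes tested), with DESeq2 1.42.0 as an alternative. Standard errors are the absolute log2 value divided by the square root of F. Levels in CPM were computed from the deposited counts. Organ contrasts used genes with at least 1 count in the 26 libraries. Named were all members, 11 pathway genes whatever their values, and the 3 genes most like each member in blood. Other pathway genes in the text were chosen after their values were seen. Genes with many counts that were changed by known folds in simulated counts were recovered. The simulation did not cover genes with few counts, nor slopes as small as those found in blood. Organs of 1 fetus come from the same animal, so the fetus was an alternative block. Over 23 same-fetus organ pairs, deviations from the organ means had a median r of 0.0219 (−0.0943 to 0.229), above 0.1 in 2. No library duplicated another: the smallest chi-square per degree of freedom between libraries of a tissue was 4.69. Each library comes from a separate animal within its tissue.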

Additional observations from a re-analysis of the deposited data

Results flagged for a closer look

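In 36 groups of libraries (9 receptors in 4 tissues), 6 values lay far above the others of their group by Dixon's test at the 95% level. The test flags about 1 of 20 groups by chance only where values are normally distributed. CPM near 0 are not: the liver groups of TLR5, TLR9 and TLR10 had 7, 6 and 6 of 8 libraries at 0. In such groups 1 library with a few counts is readily flagged, so the 6 are not read as an excess over chance. TLR3 in the liver of fetus 3 was at 30.2 CPM (513 counts), and the next library at 6.14 CPM. TLR10 in the liver of fetus 1 was at 1.07 CPM (20 counts), against 0.169 CPM in the next. TLR5 in the liver of fetus 8 was at 0.337 CPM (8 counts), with 0 in the 7 others. TLR9 in the liver of fetus 9 was at 0.401 CPM (8 counts), with 0.13 CPM in the next. In the gonads, TLR2 of fetus 9 was at 4.07 CPM (next 3.32 CPM), and TLR5 of fetus 1 at 2.73 CPM (next 2.22 CPM).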

How the results depend on the processing

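Over counts of receptors called, 194 of 210 alternative values stayed within 1.5 times the main count. Most of the 15 main counts were 0, and a 0 that stayed at 0 is included as unchanged, so this share says little about the counts above 0. In the liver against the heart, 2 receptors became 4 with DESeq2 and with upper quartile scaling, which moved the median of all genes by 0.17 and 0.19, and by 0.17 and 0.18 against the gonads. With the fetus as a replicate block, 3 in place of 6 passed in the liver against the gonads, and no other count of calls moved by over 1.5 times. Without the liver libraries of fetuses 1 to 3 and the heart library of fetus 3, chosen after seeing the data, 5 passed in the gonads against the heart and 5 in the liver against the heart. Shares of all genes called are given here for edgeR's main fits only, so no excess is read from counts under the alternatives. DESeq2 called 1 by slope in the heart, 1 by group in the heart and 1 by group in the gonads. The liver spline called 0 with all detected genes, with 2 degrees of freedom and without fetuses 1 and 2. Leaving out 1 fetus at a time gave 2 to 4 in the liver against the heart, 0 to 1 by slope and by group in the heart, 0 to 1 by group in the gonads and 0 to 1 by the liver spline. DESeq2 gave no p-value for TLR3 in the organ contrasts. TLR6 in the gonads against the heart turned to 0.027 with the block. TLR3 in the liver against the heart turned to −2.17 with the block, to −5.66 without the 4 libraries and to −0.30 without fetus 3 (−0.30 to 1.93 over the fetuses left out), and TLR3 in the liver against the gonads to −2.45 without the 4 libraries. TLR7 in the liver against the heart turned to 0.13 with DESeq2, 0.15 with upper quartile scaling, 0.0088 with the stricter count filter, 0.39 without the 4 libraries and −0.16 to 0.15 over the fetuses left out. TLR2 in the liver against the gonads ranged from −0.014 to 0.25 over the fetuses left out. The causes were not tested. Some receptors had few counts per library (TLR8, TLR9 and TLR10 in the organs, TLR5 in the heart and liver, and TLR3 in the gonads), and counting error is large there.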

Other observations

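Further genes of the pathway list that differed between organs were chosen here after their values were seen. IRF5, a transcription factor downstream of MYD88, averaged 105 ± 26.8 CPM in the liver against 2.83 ± 0.666 CPM in the heart and 3.14 ± 0.748 CPM in the gonads (SD, n = 8, 9 and 9). Its log2 fold change in the liver was 5.22 over the heart (adjusted p = 4.74e-19, edgeR) and 5.06 over the gonads (adjusted p = 4.73e-19, edgeR). IL1B, an inflammatory cytokine gene induced by TLRs, had 150 to 333 counts in the liver libraries, against 6 to 43 in the heart and 0 to 8 in the gonads. In the liver these counts were 8.38 to 19.4 CPM. SIGIRR, an inhibitor of TLR signalling, had 16.7 to 36.2 CPM in the liver, 5.45 to 13.3 CPM in the gonads and 2.66 to 3.94 CPM in the heart, with all 3 contrasts called by edgeR. NFKB1, which encodes the p50 subunit of NF-kappaB, was higher in the liver by 1.92 over the heart and 3.38 over the gonads (adjusted p = 4.64e-13 and 4.68e-18, edgeR). Among the 3 fetal organs the summed macrophage and neutrophil markers were likewise highest in the liver, as given above. The neutrophil sum was mostly S100A12, and the part of these markers in the levels was not tested.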
